A study of Mus musculus with 7 samples.

Results

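The 10 genes described here are products of macrophages that clear debris and take up lipid: *Msr1*, *Cd36*, *Mrc1*, *Trem2*, *Cd68*, *Gpnmb*, *Spp1*, *Lgals3*, *Apoe* and *Arg1*. They are a list of names, genes of infiltrating and debris-clearing macrophages, and the rule used no measured value, although the list was drawn up with earlier results of these data known. All 10 were among the 21965 genes of the count table, and all 10 were among the 15743 genes that passed the filter on low counts and were tested.

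RNA was sequenced from contused mouse spinal cord 3 days after injury, with 1 library per mouse, to ask what loss of the clock factor BMAL1 (gene *Arntl*) does to the injured cord. The 3 libraries labelled Arntl knockout (KO) came from 2 females and 1 male of the constitutive, whole-body *Bmal1*-/- line B6.129-Arntl tm1Bra, and the 4 wild type (WT) libraries came from 2 female and 2 male C57BL/6 mice (substrain J by the methods). All mice were 8 to 10 weeks old and received the same contusion at T9 (50 kdyn, with a displacement of 400 to 600 μm), and a 5 mm piece around the epicenter was collected at zeitgeber hours 3 to 5. The knockout mice were bred from heterozygotes, and per the study 1 of the 4 WT mice was a littermate, so genotype and breeding origin cannot be told apart for the rest. No uninjured or sham library was analysed here, so the values compare genotypes after injury and do not show what the injury did.

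After a contusion, blood monocytes enter the cord, mature into macrophages and, with resident microglia, engulf red cells, dead cells and myelin. Myelin is rich in cholesterol, and phagocytes that cannot export it fast enough fill with lipid droplets and are called foam cells. Scavenger receptors bind oxidized lipid and debris at the surface, TREM2 senses lipids, lysosomal glycoproteins mark the degradative compartment, and apolipoprotein E carries the cholesterol out again. None of these genes is restricted to infiltrating macrophages: microglia make several of them, astrocytes make *Apoe*, and endothelial cells make *Cd36*.

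Levels are in CPM, the count scaled to a fixed total by the library's size and TMM factor. KO was set against WT in edgeR's quasi-likelihood test over all tested genes, p-values were adjusted after Benjamini and Hochberg, and genes with an adjusted p under 0.05 were called. Log2 fold changes are KO over WT, with the standard error (SE) and 95% interval from that fit. Library totals ran from 38529644 to 44096737 counts, so the spread between mice and not counting error limits precision, with a common dispersion of 0.0342. WT replicate 3 stood apart on both of the first 2 principal components, which held 48.6% and 26.3% of the variance, and values without it are given for the 10 genes and for the medians of the related lists. The gene-level count of the targeted gene was higher in KO: *Arntl* had 24.1, 24.2 and 22.5 CPM in the KO libraries and 14.7, 15.3, 11.9 and 13.4 CPM in WT, a log2 fold change of 0.77 (SE 0.10, adjusted p = 0.0155 by edgeR, and from 0.00523 to 0.102 with each library left out). Whether its counts include the deleted exons was not tested. The study's qPCR did not detect *Bmal1* mRNA in contused *Bmal1*-/- cord 3 days after injury. The clock outputs *Nr1d1* and *Dbp* had log2 fold changes of -2.51 and -1.85 (adjusted p = 0.000456 and 0.00328 by edgeR) with no overlap between groups. All statements on KO below therefore concern the libraries labelled Arntl knockout.

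No gene of the 10 passed edgeR's test between genotypes. By edgeR's adjusted p, 0 of 10 were lower and 0 of 10 were higher, where 0.915% and 0.654% of all tested genes were called in those directions. At an unadjusted p under 0.05, 2 of 10 were lower (*Mrc1* and *Arg1*) and 0 of 10 were higher, beside 12.2% and 8.64% of all tested genes. DESeq2, the method that the study itself used, called the same 2 genes lower and none higher, where it called 5.63% of all its tested genes lower. The median log2 fold change of the 10 genes was -0.18, beside -0.0057 over all tested genes, and it was -0.0016 without WT replicate 3. In bulk tissue, fewer cells of a type and less RNA per cell cannot be told apart.

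The 10 genes spanned a wide range of levels. Per kilobase of merged exons, *Spp1* was highest in WT at 3220 ± 1380 CPM per kb (SD, n = 4), followed by *Apoe* at 1498 ± 235 CPM per kb. *Cd68* (234 ± 64.3 CPM per kb) and *Lgals3* (175 ± 74.1 CPM per kb) came next, and their WT ranges overlapped. *Gpnmb* (83.8 ± 21.3 CPM per kb) and *Arg1* (77.7 ± 44.8 CPM per kb) also overlapped, as did *Trem2* (28.2 ± 7.60 CPM per kb), *Msr1* (22.7 ± 9.91 CPM per kb) and *Cd36* (17.8 ± 8.90 CPM per kb). *Mrc1* was lowest at 2.96 ± 0.77 CPM per kb, below every WT library of *Cd36*. With merged exons the order of the means was the same in KO, but neighbours overlapped less: every KO library of *Gpnmb* (99.99 ± 24.0 CPM per kb) lay above every KO library of *Arg1* (32.4 ± 8.17 CPM per kb), and the same held for *Trem2* over *Msr1* and for *Msr1* over *Cd36*. Together the 10 genes took 0.723% to 1.49% of all counts of a library, and *Spp1* and *Apoe* made up 82.5% to 86.8% of that.

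**Figure D1:**
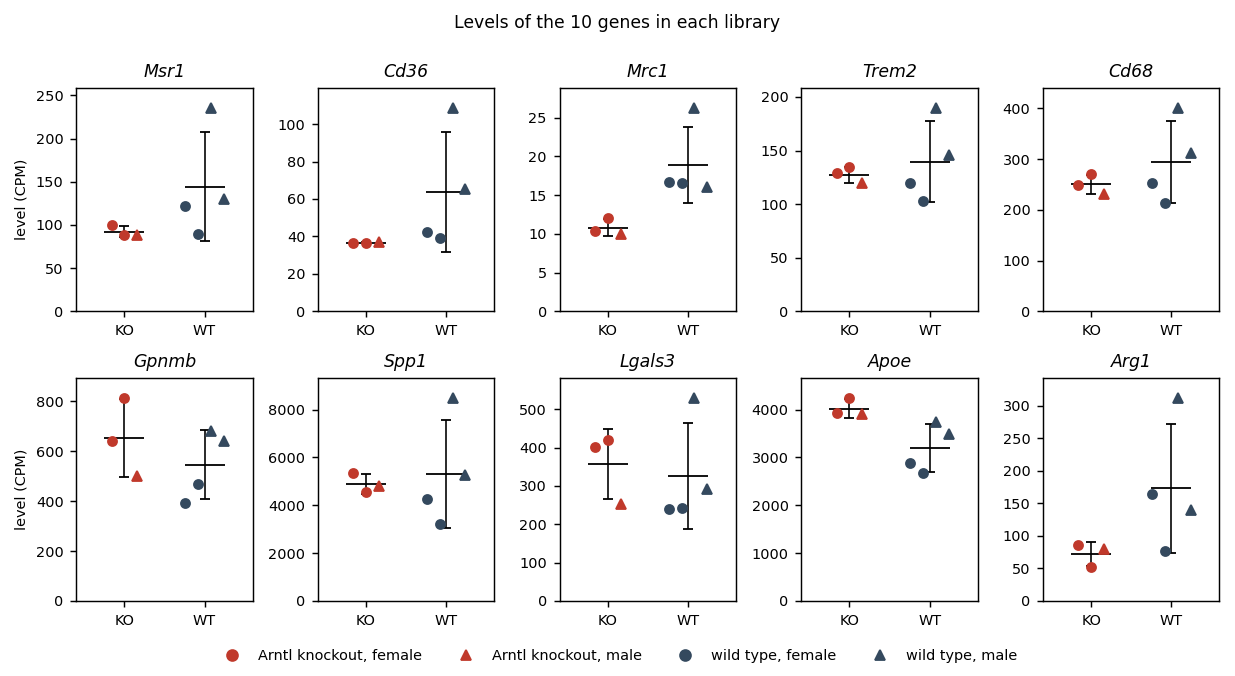
Level of each of the 10 genes in every library, in CPM on linear axes that start at 0; circles are females, triangles males, and the bars give the mean ± SD of 3 KO and 4 WT libraries. All KO libraries lie below all WT libraries for Cd36 and Mrc1 and above them for Apoe, and 1 male WT library (WT replicate 3) is the highest WT library in all 10 panels.

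The 3 scavenger and lectin receptors, *Msr1*, *Cd36* and *Mrc1*, had lower means in KO. *Mrc1* (ENSMUSG00000026712, chromosome 2 from 14229392 to 14332057, plus strand of GRCm38) encodes the mannose receptor CD206, a lectin of alternatively activated and border-associated macrophages. It had 10.3, 12.1 and 9.97 CPM in KO and 16.7, 16.5, 26.2 and 16.0 CPM in WT. Every KO library was below every WT library, the 3 WT libraries other than replicate 3 lay within 1 CPM of each other, and the lowest WT library was male. Mean *Mrc1* was 10.8 ± 1.12 CPM in KO (SD, n = 3) against 18.9 ± 4.89 CPM in WT (SD, n = 4), with a log2 fold change of -0.81 (SE 0.20, 95% interval -1.26 to -0.35). The unadjusted p was 0.00395 and the adjusted p was 0.0960 by edgeR, so the gene did not pass. Without WT replicate 3 it passed (log2 fold change -0.61, adjusted p = 0.0181 by edgeR), in a comparison that called 2.8% of all tested genes lower. It also passed in DESeq2 (adjusted p = 0.00470). In the other 14 of the 16 alternatives tried it did not pass, with an adjusted p up to 0.428 by edgeR with the replicate block.

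*Cd36* (ENSMUSG00000002944, chromosome 5 from 17781690 to 17888801, minus strand) encodes a fatty acid translocase and receptor for oxidized lipoproteins. It had 36.7, 36.6 and 36.8 CPM in KO and 42.1, 39.3, 108 and 65.2 CPM in WT. The KO libraries were nearly equal, while the WT libraries spread widely, with both male WT libraries above both females. No KO library reached the WT range, and the log2 fold change was -0.80 (SE 0.35, 95% interval -1.61 to 0.02, adjusted p = 0.245 by edgeR). Without WT replicate 3 it was -0.41 (adjusted p = 0.227 by edgeR), so that library carried much of its size. *Msr1* (ENSMUSG00000025044, chromosome 8 from 39581685 to 39642673, minus strand) encodes scavenger receptor A. Its levels were 99.5, 88.6 and 87.9 CPM in KO and 122, 89.7, 235 and 131 CPM in WT. The groups overlapped at WT replicate 2, and the log2 fold change of -0.65 (SE 0.30, 95% interval -1.35 to 0.05, adjusted p = 0.262 by edgeR) was -0.31 without WT replicate 3.

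Among the 10 genes, 2 did not overlap between groups with KO lower (*Cd36* and *Mrc1*) and 1 with KO higher (*Apoe*), where 13.5% and 13.4% of all tested genes did so in those directions. The 6 markers of border-associated macrophages, which carry much *Mrc1* in the meninges and around vessels, summed to 97.0 to 108 CPM in KO and 112 to 221 CPM in WT, and 0 of 6 were called by edgeR. DESeq2 called 1 of them lower, *Cd163*. The scavenger receptor *Cd163* of that list had 2.24, 3.51 and 2.28 CPM in KO and 6.50, 6.32, 4.44 and 4.34 CPM in WT, and its highest levels were in other WT libraries than those of *Mrc1*. No marker of the list was at 0 in any library. The 8 endothelial markers summed to 643 to 711 CPM in KO and 703 to 1079 CPM in WT, and 1 of them, *Cdh5*, was called lower (log2 fold change -0.85, adjusted p = 0.0466 by edgeR), a call that was lost with any 1 library other than WT replicate 3 left out (3 of 8 were called without that library). DESeq2 called 3 of the 8 endothelial markers lower. The part of border-associated macrophages and endothelial cells in the *Mrc1* and *Cd36* values was not tested.

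*Arg1* (ENSMUSG00000019987, chromosome 10 from 24915221 to 24927484, minus strand) encodes arginase 1, which turns arginine into ornithine and is a marker of alternatively activated and of early infiltrating macrophages. It had the most negative log2 fold change of the 10. It was counted at 85.5, 51.5 and 79.8 CPM in KO and at 164, 76.6, 312 and 139 CPM in WT. WT replicate 2 lay within the KO range, and the WT libraries themselves differed by more than the group means did. Mean *Arg1* was 72.3 ± 18.2 CPM in KO (SD, n = 3) against 173 ± 99.9 CPM in WT (SD, n = 4), with a log2 fold change of -1.26 (SE 0.45, 95% interval -2.31 to -0.21, unadjusted p = 0.0251, adjusted p = 0.192 by edgeR). DESeq2 called it (adjusted p = 0.0384), and without WT replicate 3 the edgeR value was -0.81 (adjusted p = 0.167). Of the 6 monocyte markers 0 were called by edgeR and 1 lower by DESeq2. They summed to 206 to 242 CPM in KO and 199 to 298 CPM in WT. Of the 6, 5 had a negative log2 fold change and 1 a positive one (0.24). In each direction 1 of the 6 did not overlap between groups, beside 13.5% of all tested genes with KO lower and 13.4% with KO higher. The chemokine receptor *Ccr2* of that list had 11.6, 10.03 and 8.17 CPM in KO and 16.2, 13.6, 35.7 and 11.65 CPM in WT. WT replicate 3 was the highest library for both *Arg1* and *Ccr2*, as it was for 33.9% of all tested genes and for 8 of the 10 genes. The part of monocytes in the *Arg1* values was not tested.

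*Apoe* (ENSMUSG00000002985, chromosome 7 from 19696109 to 19699188, minus strand) encodes apolipoprotein E, the main lipid carrier of the nervous system. It had 3921, 4243 and 3902 CPM in KO and 2892, 2674, 3745 and 3499 CPM in WT. All KO libraries were above all WT libraries, and within WT both males were above both females. Mean *Apoe* was 4022 ± 191 CPM in KO (SD, n = 3) against 3202 ± 503 CPM in WT (SD, n = 4), with a log2 fold change of 0.33 (SE 0.16, 95% interval -0.04 to 0.70, adjusted p = 0.274 by edgeR), which ran from 0.25 to 0.41 with each library left out. The 8 astrocyte markers summed to 16240 to 18740 CPM in KO and 10980 to 15480 CPM in WT, with 0 of 8 called (2 of 8 lower without WT replicate 3), and 4 of the 8 (*Gfap*, *Aqp4*, *Aldoc* and *Slc1a2*) did not overlap with KO higher while *Aldh1l1* did not overlap with KO lower. DESeq2 called 1 of the 8 astrocyte markers lower and 1 higher. The part of astrocytes in the *Apoe* values was not tested. WT replicate 3 had the highest *Apoe* level and the lowest summed astrocyte level among the WT libraries.

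The other 2 secreted proteins did not differ beyond the spread between mice. *Spp1* (ENSMUSG00000029304, chromosome 5 from 104435118 to 104441050, plus strand) encodes osteopontin, a phosphoprotein and cytokine that injury-associated phagocytes release in large amounts. It had 5368, 4545 and 4794 CPM in KO and 4253, 3235, 8486 and 5254 CPM in WT. All KO libraries lay inside the WT range, and the log2 fold change of -0.11 (SE 0.32, 95% interval -0.87 to 0.64, adjusted p = 0.843 by edgeR) was 0.21 without WT replicate 3 and 0.051 with sex as a covariate. In GENCODE release M21, 309 bases or 18.75% of its exon bases are shared with the unconfirmed transcript *Gm42793* on the same strand, so reads there could have been left out or given to that gene.

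*Lgals3* (ENSMUSG00000050335, chromosome 14 from 47367751 to 47386160, plus strand) encodes galectin-3, a lectin that binds damaged lysosomes and is plentiful in foam cells. It had 400, 419 and 252 CPM in KO and 239, 244, 529 and 291 CPM in WT. The female KO libraries were above both female WT libraries, and the male KO library was below both male WT libraries. The log2 fold change was 0.13 (SE 0.32, 95% interval -0.61 to 0.88, adjusted p = 0.812 by edgeR), and 0.47 without WT replicate 3 (adjusted p = 0.1996 by edgeR).

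The lipid sensor and the membrane glycoproteins were also within the spread. *Trem2* (ENSMUSG00000023992, chromosome 17 from 48346401 to 48354147, plus strand) encodes the receptor for lipids and lipoproteins that signals through TYROBP. It had 129, 134 and 119 CPM in KO and 120, 103, 189 and 146 CPM in WT, a log2 fold change of -0.13 (SE 0.20, 95% interval -0.59 to 0.33, adjusted p = 0.687 by edgeR) that was 0.051 without WT replicate 3. *Cd68* (ENSMUSG00000018774, chromosome 11 from 69664213 to 69666153, minus strand), the lysosomal protein macrosialin by which phagocytes are commonly stained, had 249, 270 and 232 CPM in KO and 254, 214, 400 and 311 CPM in WT. Its log2 fold change was -0.24 (SE 0.20, 95% interval -0.71 to 0.24, adjusted p = 0.484 by edgeR) and -0.05 without WT replicate 3. For both genes every KO library lay inside the WT range. *Gpnmb* (ENSMUSG00000029816, chromosome 6 from 49036546 to 49070929, plus strand), a transmembrane glycoprotein of lipid-loaded phagocytes, had 640, 813 and 501 CPM in KO and 391, 468, 682 and 642 CPM in WT. Only KO replicate 2 was above the WT range, and the log2 fold change was 0.26 (SE 0.24, 95% interval -0.30 to 0.81, adjusted p = 0.515 by edgeR). It was 0.066 without KO replicate 2, 0.41 without KO replicate 3 and 0.38 without WT replicate 3. The intervals of these genes leave room for differences in either direction, and a missed threshold does not show equal levels.

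**Figure D2:**
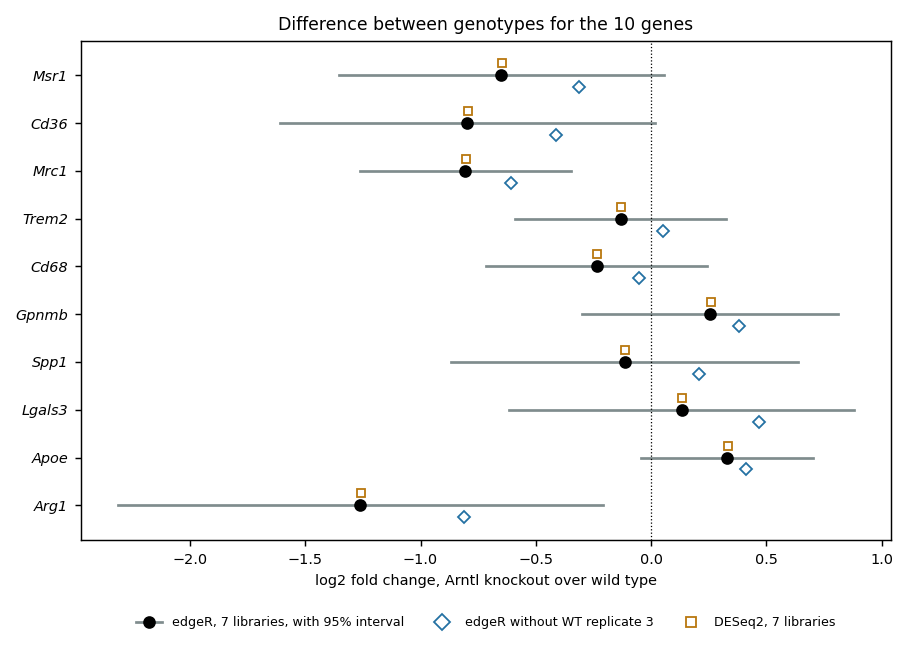
Log2 fold change of the 10 genes, KO over WT; black points with grey 95% intervals are the edgeR fit of 7 libraries, blue diamonds the same fit without WT replicate 3, and brown squares DESeq2. The interval lies wholly below 0 for Mrc1 and Arg1, and leaving out WT replicate 3 moved all 10 values upward.

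The level of general macrophage markers differed between libraries, and the 10 genes were therefore also read against it. The 12 pan-macrophage markers (among them *Adgre1*, *Csf1r*, *Lyz2* and *Ptprc*) summed to 2339 to 2943 CPM in KO and 2340 to 4321 CPM in WT, with 0 of 12 called and a median log2 fold change of -0.21 (-0.03 without WT replicate 3). The mean log2 CPM of these markers was 6.63, 6.67 and 6.41 in KO and 6.55, 6.39, 7.19 and 6.83 in WT, so it was highest in WT replicate 3. Which cells this RNA came from was not tested. This level was subtracted from each gene's log2 CPM in the same library, which gives a difference of logs and no test. Of the 12 markers, *Itgam* shares 68.67% of its exon bases with *Gm49368* on the same strand, so its counts are uncertain. *Csf1r* shares 15.12% with *Hmgxb3* on the opposite strand and is uncertain if strand was not used.

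On this scale the 3 scavenger and lectin receptors stood lower and *Gpnmb* and *Apoe* higher in KO, while the lipid receptor gene *Trem2* overlapped between groups. Relative to the pan-macrophage level, 3 of the 10 genes had KO libraries all lower than WT (*Msr1*, *Cd36* and *Mrc1*) and 2 had them all higher (*Gpnmb* and *Apoe*), where 5.17% and 4.19% of all tested genes did so. Among the 80 tested genes of the related lists described below, 6 were lower and 5 higher in this sense. Of the scavenger and phagocytic receptors among them, *Fcgr1*, *Fcgr3*, *Marco* and *Stab1* were lower and none was higher. *Mrc1* stood at -3.26, -3.07 and -3.08 in KO and at -2.49, -2.34, -2.48 and -2.83 in WT, a difference of means of -0.60 that was -0.58 without WT replicate 3. *Cd36* stood at -1.43, -1.48 and -1.21 in KO and at -1.16, -1.10, -0.43 and -0.81 in WT. The nearest libraries of the groups were 0.05 apart for *Cd36*, 0.04 for *Msr1* and 0.07 for *Gpnmb*, so these separations are slight.

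*Apoe* stood at 5.30, 5.38 and 5.52 in KO and at 4.94, 4.99, 4.68 and 4.94 in WT, a difference of means of 0.51 (0.44 without WT replicate 3). *Gpnmb* stood at 2.69, 2.99 and 2.56 in KO and at 2.05, 2.48, 2.23 and 2.49 in WT, a difference of means of 0.43 (0.41 without WT replicate 3). The WT library that was highest in plain CPM for *Apoe*, replicate 3, was the lowest on this scale, and the level subtracted there was the highest. *Cd68* and *Trem2* tracked the pan-macrophage level most closely, with SDs within a group of at most 0.06 and differences of means of -0.03 and 0.08. *Arg1* kept its overlap on this scale, since WT replicate 2 at -0.13 lay among KO values of -0.21, -0.99 and -0.09.

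**Figure D3:**
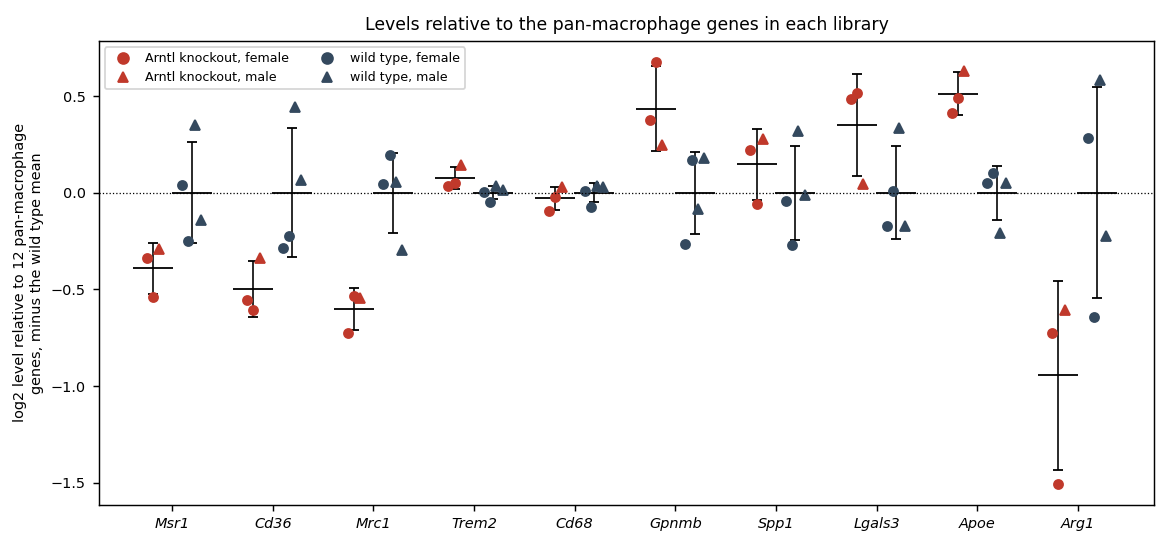
Log2 level of each of the 10 genes relative to the mean of 12 pan-macrophage genes in the same library, shown as the difference from the WT mean; circles are females, triangles males, and bars give the mean ± SD of 3 KO and 4 WT libraries. KO libraries lie wholly below WT for Msr1, Cd36 and Mrc1 and wholly above for Gpnmb and Apoe, while Cd68 and Trem2 stay close to the WT mean in all libraries.

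Read within each sex, the 10 genes did not share 1 pattern. For 4 of them (*Gpnmb*, *Spp1*, *Lgals3* and *Trem2*) both female KO libraries were above both female WT libraries and the male KO library was below both male WT libraries, a pattern that 6.11% of all tested genes had. For *Gpnmb* the difference in mean log2 CPM was 0.75 in females and -0.40 in males, and for *Lgals3* it was 0.76 and -0.64. *Mrc1* and *Cd36* were lower in both sexes, by differences of -0.57 and -0.15 in females and -1.03 and -1.19 in males, and *Apoe* was higher in both (0.55 and 0.11). The difference of males minus that of females was negative for all 10 genes in the edgeR fit of genotype by sex. The share of all tested genes with a negative difference was not counted, and WT replicate 3, a male, was the highest WT library for all 10 genes. The difference was -1.16 (SE 0.26) for *Gpnmb* and -1.47 (SE 0.44) for *Lgals3*. Its unadjusted p by edgeR was under 0.05 for 5 of 10 genes (*Gpnmb*, *Lgals3*, *Cd68*, *Trem2* and *Cd36*), where 6.05% of all tested genes reached it in that direction.

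After adjustment over all genes, 0 of 10 passed for genotype by sex, with adjusted p from 0.400 to 0.659 by edgeR, and of the 10 DESeq2 called *Gpnmb* alone. Males were 1 KO and 2 WT mice, 1 of them WT replicate 3. The pan-macrophage markers had the same shape in 8 of 12 genes. Within WT the summed level of those markers was 2602 and 2340 CPM in females and 4321 and 3150 CPM in males, whereas in KO it was 2886 and 2943 CPM in females and 2339 CPM in the male. The part of macrophage content in the difference between sexes was not tested, and sex and the individual male mice cannot be told apart.

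Genes that work with the 10 were read from 5 lists. Of the 19 tested scavenger and phagocytic receptors 0 were called by edgeR, with a median log2 fold change of -0.31 (-0.13 without WT replicate 3). DESeq2 called 1 lower (*Cd163*, adjusted p = 0.0025) and 1 higher (*Megf10*, adjusted p = 0.0467). The smallest p in that list belonged to *Cd163* (log2 fold change -1.01, adjusted p = 0.0926 by edgeR) and to *Megf10*, a phagocytic receptor of astrocytes (0.25, adjusted p = 0.153 by edgeR), and its most abundant genes, *Lrp1* and *Stab1*, had log2 fold changes of -0.01 and -0.36. Of the 10 bridging molecules and TREM2 signalling genes 0 were called by edgeR or DESeq2, with a median of -0.17 (-0.03 without WT replicate 3). The TREM2 adaptor *Tyrobp* had a log2 fold change of -0.14 (0.01 without WT replicate 3) and the bridging molecule *Gas6* one of -0.09, both near that of *Trem2* itself, while *Mfge8*, which links dying cells to integrins, had -0.35 and the phosphatase gene *Inpp5d* -0.25.

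Of the 18 genes of lipid uptake, storage and efflux 0 were called by edgeR or DESeq2, and their median was -0.10 (0.02 without WT replicate 3). *Fabp5*, a fatty acid binding protein, had a log2 fold change of -0.38, the cholesterol 25-hydroxylase gene *Ch25h* had -0.77 (adjusted p = 0.229 by edgeR, no overlap between groups, -0.42 without WT replicate 3) and the tetraspanin gene *Cd9* had 0.18 (adjusted p = 0.226 by edgeR). *Plin2*, which coats lipid droplets and is named here outside the naming rule, had 256, 243 and 242 CPM in KO and 210, 172, 407 and 252 CPM in WT. Its pattern over libraries was that of *Spp1*, with WT replicate 3 highest and WT replicate 2 lowest. For 12 of the 18 genes of this list WT replicate 3 was the highest library, beside 33.9% of all tested genes.

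Of the 20 lysosomal genes 0 were called by edgeR and 2 higher by DESeq2, with a median of -0.10 (-0.0017 without WT replicate 3). *Ctsl*, the protease cathepsin L, had 1047, 1044 and 960.0 CPM in KO and 673, 591, 838 and 662 CPM in WT. Its groups did not overlap and its log2 fold change of 0.56 (SE 0.13, adjusted p = 0.0853 by edgeR) passed without WT replicate 3 (0.66, adjusted p = 0.00895 by edgeR). Antisense *Gm47123* shares 26.85% of its exon bases, so its counts are uncertain if strand was not used. *Atp6v0d2*, a subunit of the lysosomal proton pump, had a log2 fold change of 1.11 (adjusted p = 0.0895 by edgeR), while the abundant cathepsins *Ctsb* and *Ctsd* had -0.18 and -0.21 (-0.02 for both without WT replicate 3). *Ctsd* shares 34.37% of its exon bases with another gene on the same strand and is uncertain too.

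Of the 13 tested genes of alternative activation and arginine metabolism 0 were called by edgeR, with a median of -0.41 (-0.24 without WT replicate 3). DESeq2 called 1 of the 13 lower, and edgeR called 1 lower without WT replicate 3. *Stat6*, which transmits interleukin-4 signals, had a log2 fold change of -0.41 (adjusted p = 0.148 by edgeR), the transglutaminase gene *Tgm2* had -0.56 (adjusted p = 0.175 by edgeR) and *Odc1*, the ornithine-using enzyme downstream of arginase, had -0.18. The 10 genes' own median of -0.18 thus lay between those of the lipid and lysosome lists and that of the alternative activation list. By themselves *Arg1*, *Mrc1*, *Cd36* and *Msr1* lay below the median of that last list, and *Apoe*, *Gpnmb* and *Lgals3* above the median of each of the 5 lists.

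**Figure D4:**
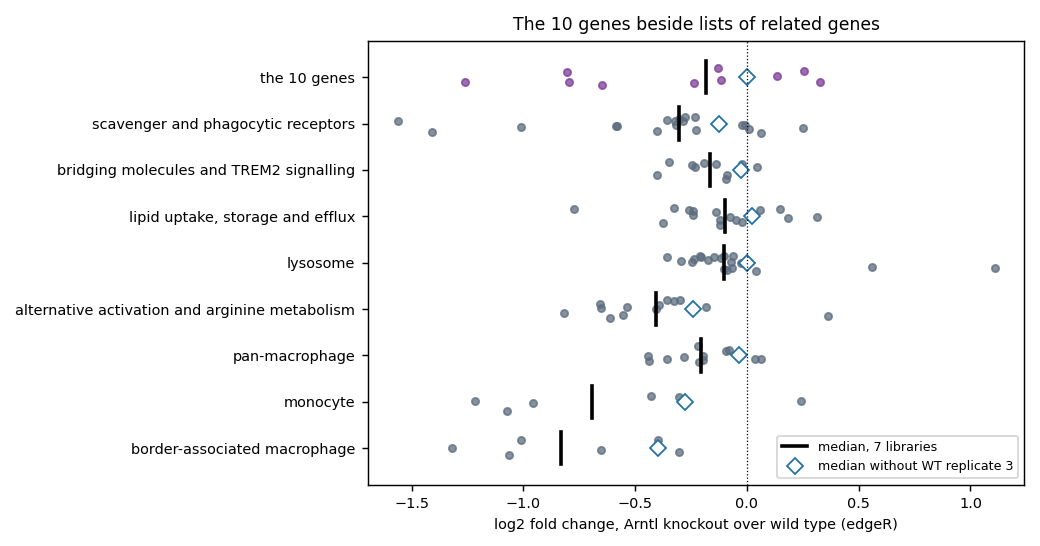
Log2 fold change of single genes (points, spread vertically at random), KO over WT by edgeR, for the 10 genes and 8 lists of related genes and markers; black bars are medians over 7 libraries and blue diamonds medians without WT replicate 3. All 9 medians were negative with 7 libraries, and all of them lay nearer to 0 without WT replicate 3.

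Markers of further cell types were read in the same way. The 6 skeletal muscle markers summed to 4.98 to 6.60 CPM in KO and 45.7 to 59.8 CPM in WT, with 5 of 6 called lower (2 to 6 when single libraries were dropped). Of the 5 genes of the Schwann cell list edgeR called 0 and DESeq2 called 3 lower, and 3 of 5 did not overlap with KO lower. The 8 genes of S and G2/M phase summed to 271 to 353 CPM in KO and 437 to 742 CPM in WT (0 of 8 called, adjusted p from 0.0579 by edgeR), and none of the 8 overlapped between groups. Without WT replicate 3 edgeR called 6 of these 8 lower, and DESeq2 called 7 with all libraries. The 7 neuronal markers summed to 4469 to 5518 CPM in KO and 1705 to 4441 CPM in WT (0 of 7 called). The lists of homeostatic microglia (765 to 929 CPM in KO and 903 to 1161 CPM in WT), neutrophils (74.0 to 93.7 CPM and 66.2 to 148 CPM), lymphocytes (2 of 5 tested, 0.48 to 1.04 CPM and 0.93 to 2.12 CPM), fibroblasts (1025 to 3298 CPM and 2572 to 3219 CPM) and oligodendrocytes (23910 to 29420 CPM and 24180 to 35370 CPM) had 0 genes called by edgeR. For fibroblasts KO replicate 2 stood apart at 3298 CPM, with the other KO libraries at 1237 and 1025 CPM, and without it 5 of 8 were called lower. DESeq2 called 1 homeostatic microglia gene and 2 fibroblast genes lower. The part of these tissues in the values of the 10 genes was not tested.

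Start site sequences were read for the 8 of 10 genes listed in the RefSeq table of promoters for GRCm38.p6, each from 250 bases before to 50 bases after a start. *Arg1* and *Msr1* were not matched. BMAL1 binds the E-box CACGTG, and no promoter of these 8 genes held it, where 7.15% of all 32851 promoters did. None held the sites TAGGTCA (2.61% of all promoters) of REV-ERB and ROR receptors or TTATGNAA (3.38%) of D-box factors, with both strands searched. The AP-1 pattern TGANTCA, searched with any base at its centre (7.81%), occurred in the promoters of *Cd68*, *Gpnmb* and *Trem2*. The matched letters were TGAGTCA in *Cd68*, TGACTCA in *Gpnmb* and TGAATCA in *Trem2*. The ETS site GAGGAAGT (3.2%) that PU.1 can bind occurred in 1 of the 2 promoters of *Spp1*. A match here is a run of letters and not a shown binding site, and no match says only that these letters are not in this window. The 3 promoters with an AP-1 match and that of *Mrc1*, the gene with the smallest p, are shown 5′ to 3′ with the AP-1 letters in capitals, and *Mrc1* has none of the 5 motifs.
Cd68, chr11:69666121-69666420, minus strand: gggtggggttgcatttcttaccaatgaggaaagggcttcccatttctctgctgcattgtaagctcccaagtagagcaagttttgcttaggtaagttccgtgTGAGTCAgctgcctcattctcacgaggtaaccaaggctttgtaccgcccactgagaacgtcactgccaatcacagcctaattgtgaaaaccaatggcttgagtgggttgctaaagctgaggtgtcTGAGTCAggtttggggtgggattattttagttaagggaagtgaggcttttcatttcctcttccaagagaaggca
Gpnmb, chr6:49036268-49036567, plus strand: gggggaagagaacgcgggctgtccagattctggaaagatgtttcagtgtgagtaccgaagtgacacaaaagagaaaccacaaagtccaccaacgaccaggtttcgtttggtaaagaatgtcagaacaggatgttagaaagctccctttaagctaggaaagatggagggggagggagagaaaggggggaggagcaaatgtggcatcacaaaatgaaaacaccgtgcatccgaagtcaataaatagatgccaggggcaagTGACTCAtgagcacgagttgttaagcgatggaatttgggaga
Trem2, chr17:48346151-48346450, plus strand: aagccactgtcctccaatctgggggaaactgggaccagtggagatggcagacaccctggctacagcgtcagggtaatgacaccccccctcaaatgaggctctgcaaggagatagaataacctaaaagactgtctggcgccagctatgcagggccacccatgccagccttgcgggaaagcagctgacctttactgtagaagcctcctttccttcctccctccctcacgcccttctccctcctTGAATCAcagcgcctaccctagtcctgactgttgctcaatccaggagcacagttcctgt
Mrc1, chr2:14229164-14229463, plus strand: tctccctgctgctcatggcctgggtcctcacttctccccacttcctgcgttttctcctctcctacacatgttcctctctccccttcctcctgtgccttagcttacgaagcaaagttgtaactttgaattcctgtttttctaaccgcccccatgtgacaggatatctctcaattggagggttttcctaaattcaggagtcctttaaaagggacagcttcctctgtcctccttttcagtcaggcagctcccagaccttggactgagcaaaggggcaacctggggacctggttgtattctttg
The matches began 149 and 24 bases before the start in *Cd68*, 9 bases before it in *Trem2* and at base 9 of the transcript in *Gpnmb*. These genes had log2 fold changes of -0.24, -0.13 and 0.26, and none of them passed the test between genotypes.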

How the data were processed

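RNASeq libraries (stranded, poly-A) were aligned by the authors with Tophat2 to GRCm38 (mm10) after FastQC 0.10.1 and counted per gene with HTSeq 0.10.0, per the labels and the methods of the study. The annotation release and strand setting are not given in the sources used here. The authors deposited these raw counts, and the 7 columns were checked to hold whole numbers with unequal totals. Each library is 1 mouse, per the methods of the study.

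Genes were filtered with filterByExpr, normalized with TMM and tested across all genes with edgeR 4.0.16 (limma 3.58.1, R 4.3.3), a prior count of 2 for log2 CPM and a threshold of 0.05. Genotype by sex was fitted in the same way. Positions and merged exon lengths came from GENCODE M21, which matched 21939 of 21965 IDs. Plots used matplotlib 3.10.9 and python 3.11.15. The fits were tested on simulated data that held no sex effect and no outlying library, so that test does not bear on these features of the real libraries.

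The members and lists were chosen with earlier results of these data known. All 10 genes are named, and from each related list the 2 genes with the smallest p and the 2 most abundant, while marker genes are named only beside a result they touch. *Clec7a* was not analysed here. The alternatives tried were DESeq2 1.42.0, limma-voom, scaling by RLE or by the upper quartile, weaker (1 count) and stricter (mean count 10) filters, sex or the replicate number as a further term, leaving out single libraries, and the longest transcript for levels per kb. Correction for GC content and length was added after seeing the data.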

Additional observations from a re-analysis of the deposited data

Results flagged for a closer look

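*Mrc1* had 26.2 CPM in WT replicate 3, farther from the next WT library than Dixon's 95% limit for 4 samples allows (gap over range 0.929). *Lgals3* came close without passing (0.82). Chance alone puts about 1 in 20 groups past this limit, and 10 genes were looked at in WT only, since 3 KO libraries are too few. Leaving out that library changed the log2 fold change of *Mrc1* from -0.81 to -0.61.

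In 4 genes the female and the male KO libraries lay on opposite sides of the WT libraries of their sex. The difference of males minus that of females on the log2 scale was -1.16 for *Gpnmb*, -0.92 for *Spp1*, -1.47 for *Lgals3* and -0.73 for *Trem2*. In edgeR's test of genotype by sex none of them passed after adjustment over all genes (adjusted p = 0.400, 0.406, 0.400 and 0.400), and the male side rests on 1 KO mouse.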

How the results depend on the processing

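The count of genes called higher was 0 of 10 under every alternative run. The count called lower was 0 except for 2 with DESeq2, and it ran from 0 to 1 with each library left out, the 1 being *Mrc1* without WT replicate 3. The median log2 fold change of the 10 genes ran from -0.33 to -0.0016 over those, and the other alternatives lay within. For genotype by sex the count was 1 with DESeq2 and 0 to 9 with a library left out. The 9 came without WT replicate 4, where 5709 of 15676 tested genes were called, while without WT replicate 3 none of 15664 were (3199 at an unadjusted p under 0.05). In both fits each male group is 1 library and the spread comes from females alone, so neither bears on stability, and with all libraries the KO male is still 1 mouse. Without KO replicate 3 that fit could not be made.

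*Spp1* changed sign, at 0.051 with sex as a covariate, 0.0062 with the replicate block, 0.0013 with the GC content and length trend removed, and from -0.30 to 0.21 with each library left out. *Trem2* ran from -0.26 to 0.051 with each library left out. The cause was not tested. Replicate numbers did not pair the libraries: the correlation of same-numbered deviations was -0.174, 0.183 and -0.295, and with the replicate block no gene of all tested was called (1590 at an unadjusted p under 0.05). Over all genes DESeq2 called 921 lower and 573 higher, against 144 and 103 by edgeR, while without WT replicate 3 edgeR called 439 and 291, and without KO replicate 1 it called 27 and 30. Calls lower among all calls ranged from 41.1% without KO replicate 3 to 74.3% without KO replicate 2, beside 58.3% with all libraries, and the share was 47.4% with the GC content and length trend removed. With the longest transcript in place of merged exons, *Msr1* (39.7 CPM per kb) ranked above *Trem2* in WT, and *Lgals3* (252 CPM per kb) above *Cd68* (203 CPM per kb) in KO. Depth did not limit these genes, whose lowest count was 393.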
